A study of Mus musculus with 16 samples.

Results

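Hepatocytes, the parenchymal cells that make up most of the liver's mass, were set against the 3 nonparenchymal cell types isolated from the same organ: endothelial cells (ECs), hepatic stellate cells (HSCs) and Kupffer cells (KCs). RNA of unchallenged mouse liver was counted per gene in 16 libraries, 4 of hepatocytes (HEP) and 4 of each other cell type, with 2 of each 4 labelled WT and 2 labelled KO. A gene was taken as hepatocyte-specific when its mean level over the 4 HEP libraries, in counts per 1000000 gene-assigned reads (CPM), was at least 4 times the highest of the EC, HSC and KC means, with more than 3 counts in at least 1 HEP library. This gave 1382 of the 47729 genes in the files. As the mirror of this rule, 2934 genes were taken as lacked by hepatocytes: each of the other 3 means was at least 4 times the HEP mean and at least 1 CPM. The levels themselves chose both sets, so that their levels across cell types are described here and not tested.

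KO-labelled mice carried loxP-flanked Zeb2 alleles (exon 7) and the tamoxifen-inducible Cre recombinase Cdh5-CreERT2, which an endothelial promoter drives, on an R26R CAG-eGFP reporter background. WT-labelled mice were littermates without Cre. Both received tamoxifen at 2 mg per day for 5 days, and the study's methods give males 8 weeks old and RNA 2 weeks after tamoxifen as its defaults. Hepatocytes were thus not the cells in which Zeb2 was to be deleted. They were separated from the other cells by centrifugation, whereas HSCs (UV+), KCs (UV-, F4/80+) and ECs (UV-, Pan-endo+) were sorted from the remaining suspension by fluorescence. The number in each label names the library, and no number recurs among the 16. Nothing in the labels says whether libraries of a group came from separate mice, so that the p-values measure only the spread between these libraries. The study's methods describe obtaining the cell types of a liver together, and 1 mouse may thus have given several of the libraries. The labels do not tie them, and the fits below treat them as independent.

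Hepatocytes secrete most of the proteins of blood plasma, turn ammonia into urea, store and release glucose, oxidise fatty acids, form bile acids and modify drugs and hormones for excretion. A network of transcription factors that includes Hnf4a and the Foxa factors maintains this programme. Hepatocytes are epithelial cells with junctions and keratins 8 and 18. The sinusoidal cells around them are mesenchymal, endothelial or of the macrophage lineage.

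Between 12872706 and 15690506 reads per library were assigned to genes, so that a count of 3 corresponded to 0.191 to 0.233 CPM, the floor used below. Replicates of each group differed by more than sampling noise. The 10 EC, 10 HSC and 10 KC marker genes were all lower in HEP than in the mean of the other cell types. In the HEP libraries their summed levels were 77.7 to 123 CPM for the EC list, 76.6 to 146 CPM for the HSC list and 162 to 473 CPM for the KC list. Gene-level Zeb2 counts cover all exons and do not show the deletion of exon 7 by themselves: the EC libraries held 106 and 106 CPM under the WT label and 199 and 130 CPM under the KO label. In HEP, Zeb2 was at 3.76 and 1.36 CPM (WT) and 2.90 and 0.607 CPM (KO).

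The HEP libraries WT 29 and KO 41 stood apart by transcripts of the exocrine pancreas. The summed level of 26 such genes, listed after their values were seen, was 13059 CPM (1.31% of reads) in WT 29 and 7793 CPM (0.779%) in KO 41, against 702 CPM in WT 33 and 108 CPM in KO 25. Among the other 12 libraries it was highest in EC KO 6, at 710 CPM, and 17.4 to 157 CPM elsewhere. Pnlip, pancreatic lipase, was at 1499, 73.9, 0 and 1012 CPM in HEP WT 29, WT 33, KO 25 and KO 41. Prss2, an anionic trypsinogen, was at 1166, 58.2, 0 and 743 CPM in the same order. All 26 met the 4-fold rule through those libraries and none met it when both were left out. They are not named further as hepatocyte transcripts, but they were not removed from the 1382. They thus remain in the counts, read shares and spread given below for the hepatocyte-specific genes, and in the set behind the promoter windows. Without both libraries the rule gave 1253 genes, which held 86.0% of the original 1382, and 2991 lacked genes.

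**Figure D1:**
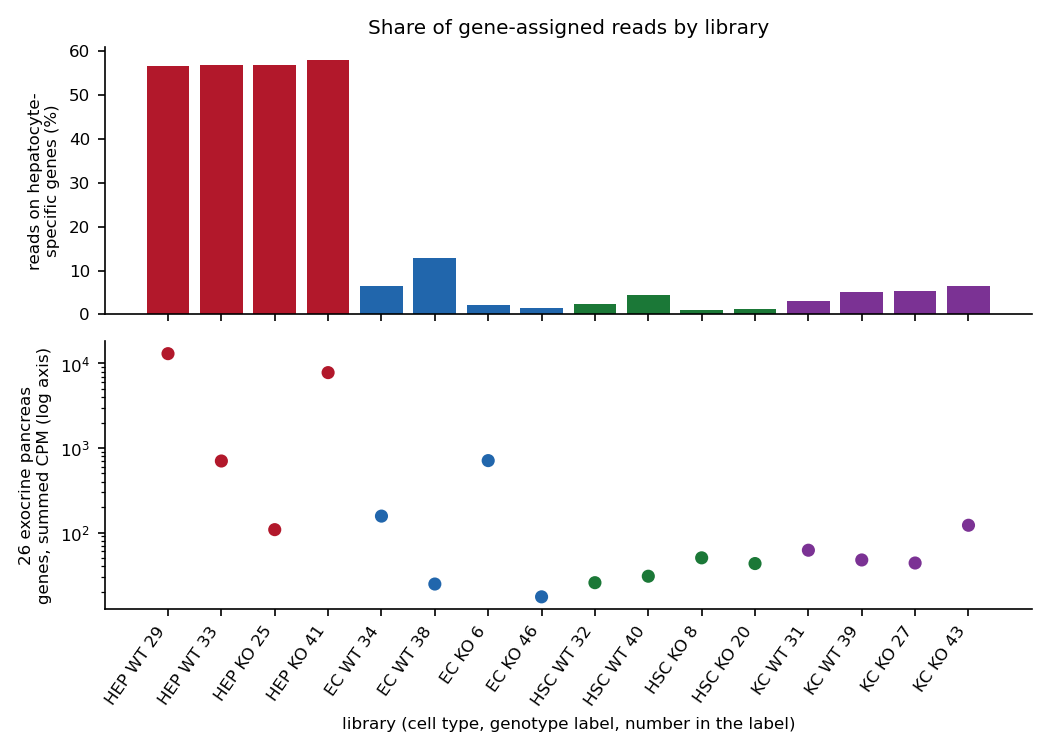
Upper panel, percent of gene-assigned reads on the 1382 hepatocyte-specific genes in each of the 16 libraries; lower panel, summed CPM of 26 exocrine pancreas genes on a log axis, 1 point per library. The 4 HEP libraries lie between 56.6% and 58.1% and EC WT 38 is the highest of the others at 12.8%; HEP WT 29 and KO 41 lie highest for the pancreas genes.

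The 3 marker genes that define the cell type were all in the set. Alb, serum albumin, was at 47246 and 47500 CPM in the WT-labelled and 52509 and 55799 CPM in the KO-labelled HEP libraries, a mean of 50763 ± 4140 (SD, n = 4). In the other 12 libraries it lay between 289 and 12528 CPM with a median of 3776, and its HEP mean was 9.58 times the EC mean, the highest of the other 3. Apoa1, the main protein of high-density lipoprotein, was at 16602, 20146, 18672 and 19252 CPM in HEP WT 29, WT 33, KO 25 and KO 41, against 89.4 to 4554 CPM elsewhere (median 1070). No HEP library overlapped with another cell type for either gene. Cps1, which makes carbamoyl phosphate in the first step of the urea cycle, was less even among the HEP libraries, at 1675, 700, 881 and 316 CPM. The lowest of these still lay above the highest other library, at 201 CPM.

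**Figure D2:**
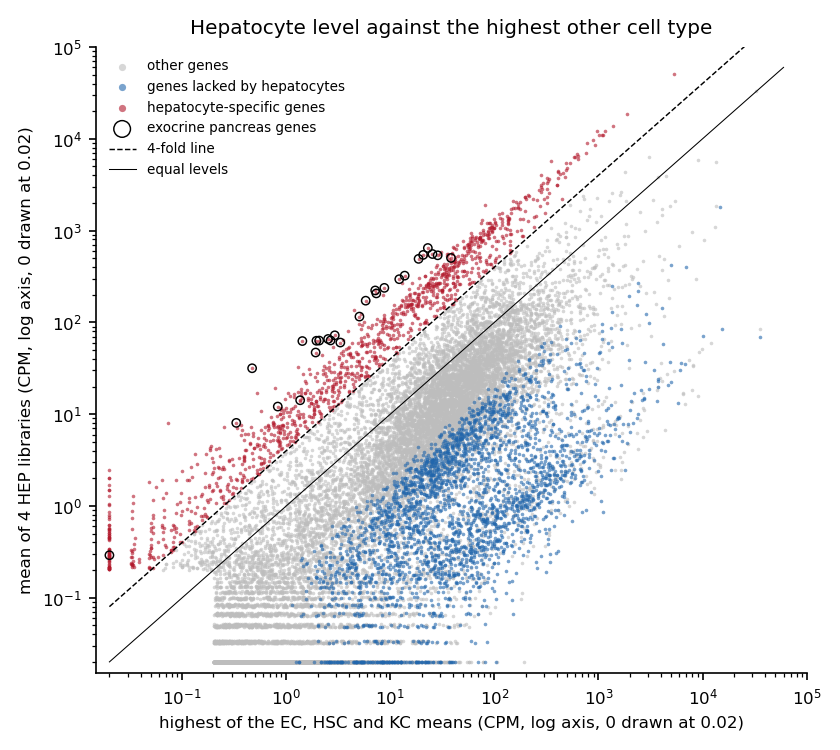
Mean CPM of the 4 HEP libraries against the highest of the EC, HSC and KC means, 1 point per gene, both axes log. Hepatocyte-specific genes lie above the 4-fold line and in a band close to a 10-fold excess from about 10 CPM upwards, the circled pancreas genes lie above that band, and lacked genes lie below the line of equal levels.

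Of the 1382 hepatocyte-specific genes, 1119 were protein-coding, 1063 had a HEP mean of at least 1 CPM, 818 of at least 10 CPM, 499 of at least 100 CPM and 114 of at least 1000 CPM. Together they took between 56.6% and 58.1% of the reads of every HEP library. A set of 1022 passed the filter on low counts of the cell type fit. In 979 genes the lowest HEP library lay above the highest of the 12 others, which held for 9.73% of the 15596 genes tested; the rule used those levels, so that nothing is read from the difference. Of the 818 genes at 10 CPM or more, 515 reached 8-fold, 50 reached 16-fold and 4 reached 32-fold. The 26 pancreas genes supplied 24 of the 818, and without them 491 reached 8-fold, 29 reached 16-fold and 1 reached 32-fold. That gene was Mup-ps17, a pseudogene of the Mup family whose level is uncertain because near-identical copies share reads. None of the 818 was at or under 3 counts in all 12 other libraries, and 526 were above 3 counts in every one of them. The whole 1382 included 371 genes whose other means all lay at or under the floor and 151 with no count in any other library, the latter all under 10 CPM in HEP. By symbol, with a HEP mean of at least 1 CPM, 49 of 65 cytochrome P450 genes (Cyp), 17 of 17 glucuronosyltransferase genes (Ugt), 22 of 35 serpins and 50 of 207 solute carriers (Slc) met the rule. The share over all genes of that level is not given beside these counts, and nothing is read from them.

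Transcripts of the hepatocyte programme were thus found in every nonparenchymal library. Over the 499 genes of at least 100 CPM, the median level relative to the HEP mean was 10.9% in EC WT 34 (quartiles 8.92% and 14.3%) and 22.2% in EC WT 38 (18.3% and 26.5%). It was 3.09% in EC KO 6 and 2.18% in EC KO 46. EC WT 38 was the highest of the 12, and both WT-labelled EC libraries lay above both KO-labelled ones. HSC libraries lay at 3.49% and 7.44% (WT) and 0.778% and 1.27% (KO). KC libraries had the opposite order by label, at 4.94% and 8.86% (WT) and 9.41% and 11.5% (KO). In bulk RNA, hepatocytes within a sort and expression by the sorted cells cannot be told apart, nor can fewer cells of a type and less RNA per cell. Genes were less even in the HSC libraries of the KO label, with quartiles of 0.402% and 2.49% in HSC KO 8 and of 0.746% and 2.93% in HSC KO 20. In all 4 HSC libraries 9 of the 499 genes reached 3 times the median of the library, among them the fatty acid oxidation genes Cpt2 and Acadvl, the deacetylase gene Sirt3 and the mTOR-binding protein gene Deptor. The rule left no room for such genes in ECs and KCs, where 3 times the medians comes to more than the levels it admits.

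The cell type contrast was also fitted across all genes, with edgeR's quasi-likelihood test, TMM factors and the genotype label as a covariate, HEP against the mean of the other cell types. After Benjamini-Hochberg adjustment, 3995 of 15596 genes (25.6%) were higher and 6641 (42.6%) lower in HEP at an adjusted p under 0.05. The direction of a moderate difference depended on the scaling. The median over all genes was -0.68 (log2) with TMM factors and -1.63 with library totals alone, which gave 2360 higher and 9757 lower genes. Counts of gene lists below are to be read against these shares. The lists were written with earlier results known, and they and the rule draw on the same libraries.

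**Figure D3:**
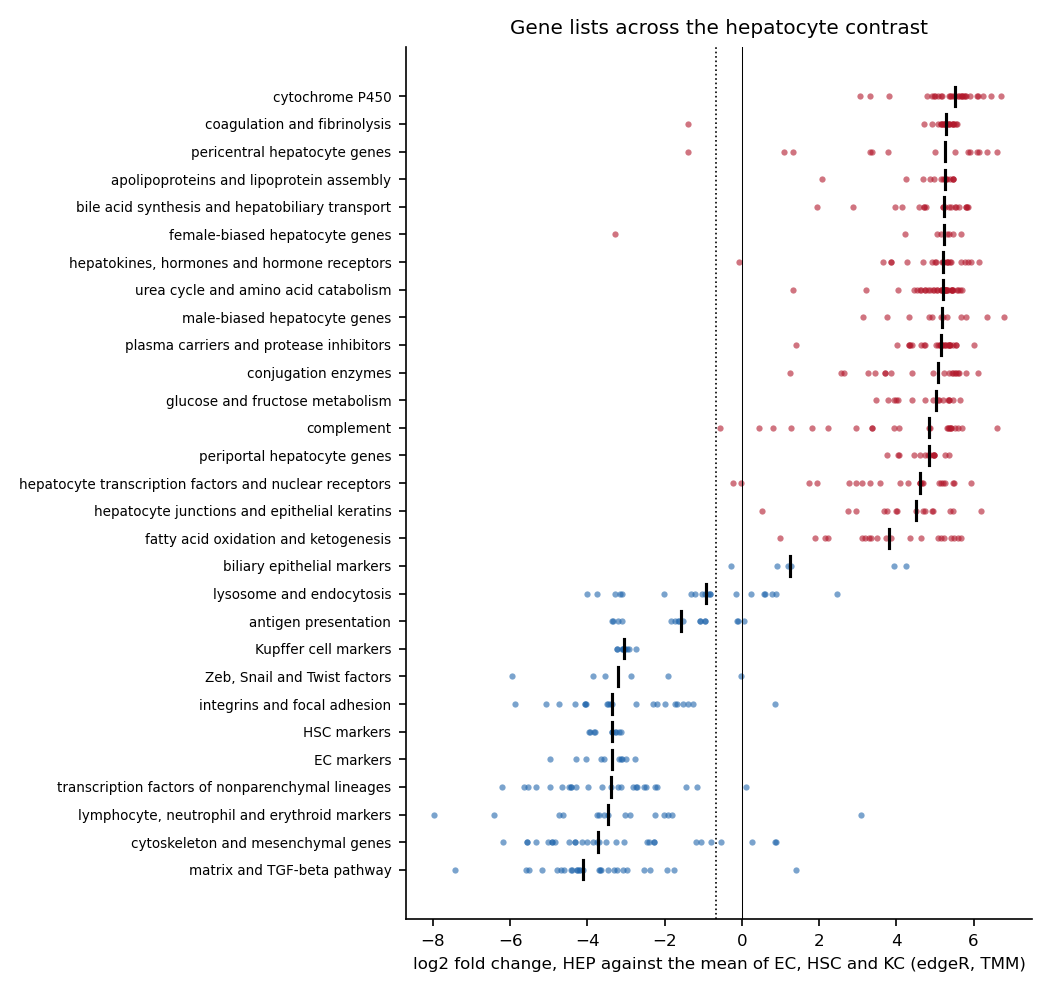
Log2 fold change of HEP against the mean of EC, HSC and KC (edgeR, TMM) for the genes of each list, 1 point per gene tested, with the list median as a black bar; red marks lists of hepatocyte functions, blue lists of other cell types and structures, and the dotted line the median of all genes (-0.68). Medians of the hepatocyte lists lie between 3.80 and 5.51 and those of the matrix and cytoskeleton lists at -4.10 and -3.72.

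Secreted proteins took a large share of HEP reads. All 29 genes for plasma carriers and protease inhibitors were higher in HEP in the fit, with a median log2 fold change of 5.16; 27 met the 4-fold rule, and the list took between 15.5% and 16.3% of HEP reads. Per kilobase of exon, the 10 highest hepatocyte-specific genes were Alb (21675 CPM per kb), Apoa2 (16092), Apoa1 (15104), Fabp1 (8633), Ttr (8122), Hpx (7327), Serpina3k (6653), Mup3 (5986), Gc (5967) and Ahsg (5592). Of these, 9 encode secreted proteins. The exception, Fabp1, encodes the fatty acid-binding protein of the hepatocyte cytosol. Gc, the vitamin D-binding protein, was at 11077, 11482, 10843 and 10634 CPM in HEP WT 29, WT 33, KO 25 and KO 41 and at 61.7 to 2534 CPM in the other libraries. Lifr, a cytokine receptor in the same list, was higher in the ECs (987 CPM) and HSCs (842 CPM) than in HEP (529 CPM) and did not meet the rule. Reads that mapped to more than 1 place were not counted and made up 38.2% to 47.9% of all HEP reads, so that levels of near-identical families such as Mup and Serpina1 are uncertain.

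Of the 16 genes for apolipoproteins and lipoprotein assembly, 15 were tested, all 15 were higher in HEP (median 5.25), and 14 met the rule. Apob, the structural protein of very-low-density lipoprotein, was at 508 ± 112 CPM (SD, n = 4) in HEP against an EC mean of 71.0 CPM, and Mttp, which loads lipid onto it, at 218 ± 85.0 CPM against 24.8 CPM. Apoe, the remnant ligand that macrophages also make, was the counterexample: its 32947 CPM in HEP and 32677 CPM in KCs gave a ratio of 1.01. Apoc2, the gene not tested, is counted among the 14 but stood at only 0.212 CPM in HEP, near the floor. GENCODE places another gene model over it on the same strand, and reads shared between genes were not counted.

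In the coagulation list, 21 of 22 genes were higher in HEP (median 5.27) and the same 21 met the rule. Fgb, the fibrinogen beta chain, was at 12040 ± 1185 CPM (SD, n = 4), 12.3 times the EC mean, and F2, prothrombin, at 4501 ± 282 CPM, 11.0 times the EC mean. The exception was Pros1, protein S, an anticoagulant cofactor that endothelium also makes. It was at 76.5, 58.0, 44.3 and 33.5 CPM in HEP, against means of 431 CPM in ECs, 387 CPM in HSCs and 112 CPM in KCs, and its log2 fold change was -1.41 ± 0.29 (SE, edgeR adjusted p = 0.00059). In the WT-labelled libraries alone it was -0.99 (edgeR adjusted p = 0.108).

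Complement was divided between cell types. Of 23 genes 21 were higher and 1 lower in HEP (median 4.85), but 14 met the rule. C9, a pore-forming terminal component, was at 691 ± 186 CPM in HEP (SD, n = 4) and 10.0 times the EC mean. C3, the central component, was at 2201 ± 987 CPM and 4.99 times the KC mean. C6, which joins the same terminal complex as C9, was at 224, 421, 207 and 122 CPM in HEP but at 1675 CPM in KCs and 410 CPM in HSCs. Masp1, a protease of the lectin pathway, had its highest mean in HSCs, at 2061 CPM, against 87.9 CPM in HEP (log2 fold change against the mean of the 3 -0.56 ± 0.23, SE, edgeR adjusted p = 0.0384). This was the 1 lower call, and it was lost with DESeq2 (adjusted p = 0.0905), with edgeR on RLE (0.127) or upper quartile factors (0.0514), without the WT-labelled EC libraries (0.0818) and in the WT-labelled libraries alone (-0.25, adjusted p = 0.55). Fits that each lacked 1 library gave 0.0175 to 0.176 (edgeR, adjusted).

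All 36 genes for the urea cycle and amino acid catabolism were higher in HEP (median 5.20) and 34 met the rule. Ass1, argininosuccinate synthase, was at 2819, 2075, 4298 and 2849 CPM in HEP WT 29, WT 33, KO 25 and KO 41, and at 58.5 to 584 CPM in the others. Otc, the mitochondrial enzyme that forms citrulline, was at 831 ± 57.4 CPM (SD, n = 4) and 11.7 times the EC mean. Those outside the rule were Glul, glutamine synthetase, with 141 ± 39.2 CPM in HEP and 178 CPM in ECs, and Aass, the first enzyme of lysine breakdown, with 330 ± 90.6 CPM in HEP and 533 CPM in ECs. Among the hepatocytes of the liver lobule, Glul is confined to those next to the central vein. Of the 14 pericentral genes listed, 8 met the rule and 13 were higher in HEP; of the 14 periportal genes, 13 met it and 14 were higher.

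All 16 genes for glucose and fructose metabolism were higher in HEP (median 5.02), and 15 met the rule. G6pc, glucose-6-phosphatase, which releases free glucose, was at 702, 1456, 1062 and 1095 CPM, and Pck1, which controls the rate of gluconeogenesis, at 1980, 3984, 3115 and 2255 CPM. Their highest values in other libraries were 317 and 684 CPM. Pygl, liver glycogen phosphorylase, fell short of the rule because KCs held 320 CPM of it against 657 CPM in HEP. All 20 genes for fatty acid oxidation and ketogenesis were higher in HEP, with the lowest median of the hepatocyte lists (3.80), and 14 met the rule. Cpt1a, the carnitine transferase that admits fatty acids to mitochondria, was nearly level in plain CPM, with 157 CPM in HEP, 144 CPM in ECs, 125 CPM in HSCs and 179 CPM in KCs.

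All 29 cytochrome P450 genes were higher in HEP, and the list had the highest median (5.51); 26 met the rule. Cyp2e1, which oxidises ethanol and carbon tetrachloride, was at 4584, 6366, 3426 and 8605 CPM in HEP WT 29, WT 33, KO 25 and KO 41, 16.5 times the EC mean. Cyp2c29 was at 1903, 1871, 1962 and 1849 CPM and 23.4 times the KC mean. The HEP libraries thus differed 2.51-fold in the first of these and 1.06-fold in the second. Cyp8b1, the 12-alpha-hydroxylase of bile acid synthesis, was at 769 ± 360 CPM (SD, n = 4), and Cyp7a1, its rate-limiting enzyme, at 18.4, 2.25, 35.3 and 9.50 CPM, which overlapped with the other libraries (0 to 3.69 CPM). In the bile acid and transport list, 20 of 21 genes were tested, all 20 were higher, and 18 met the rule. Slc10a1, the sodium-dependent bile acid importer, was at 1013 ± 115 CPM and Slco1b2, an organic anion importer, at 779 ± 124 CPM (SD, n = 4). Hsd3b7 was at 0 in all 16 libraries and, like Apoc2, lies under another gene model on its strand. All 20 conjugation enzymes were higher (median 5.08) and 15 met the rule. Ugt2b1, a glucuronosyltransferase, was 15.9 times the EC mean, while Sult1a1, a sulfotransferase, stood at 428 CPM in HEP and at 134 to 142 CPM in each other cell type.

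Of the hormones and hormone receptors, 21 of 22 were higher in HEP (median 5.22) and 19 met the rule. Hamp, the iron hormone hepcidin, was at 490, 181, 287 and 319 CPM in HEP and between 1.04 and 47.9 CPM elsewhere. Igf1, insulin-like growth factor, was at 860 CPM in HEP but also at 490 CPM in KCs, and Insr, the insulin receptor, was highest in ECs (116 CPM against 24.4 CPM in HEP). Of the 15 junction and keratin genes, 14 were higher and 10 met the rule. Krt18 was at 608, 616, 693 and 822 CPM and Gjb1, the gap junction protein connexin 32, at 916, 1017, 1123 and 1180 CPM, each with no overlap with other libraries. Cdh1, E-cadherin, reached a ratio of 3.30 and overlapped, with 19.7 CPM in HEP KO 41 and 25.9 CPM in the highest other library.

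Among 7 genes used as biliary epithelial markers, Krt7 (1.63 CPM), Krt19 (4.21 CPM) and Epcam (2.14 CPM) were low in HEP. Sox9, a factor of the biliary lineage that some hepatocytes also express, nevertheless met the rule. It was at 53.7, 60.6, 71.0 and 80.3 CPM in HEP and at most 19.8 CPM elsewhere (log2 fold change 3.94 ± 0.36, SE, edgeR adjusted p = 3.15e-07).

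Of 24 hepatocyte transcription factors and nuclear receptors, 23 were tested, 21 were higher in HEP (median 4.60), and 13 met the rule. Among these were Hnf4a, Foxa1, Foxa2, Foxa3, Onecut1, Nr1i2, Nr1i3, Nr0b2, Ppara, Creb3l3, Mlxipl and Tbx3. Hnf4a, a nuclear receptor that binds many hepatocyte promoters, was at 136, 83.1, 91.5 and 45.4 CPM in HEP WT 29, WT 33, KO 25 and KO 41, and at 0 to 22 CPM in the other libraries. Foxa3 was at 71.0, 72.3, 73.8 and 55.2 CPM against at most 12.8 CPM, and Foxa2 at 33.8, 13, 16.3 and 13.6 CPM against at most 9.24 CPM. Neither overlapped. Nr0b2, the bile acid-induced repressor SHP, was at 171, 260, 249 and 392 CPM, 11.6 times the EC mean.

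Of the factors outside the rule, several had their highest mean in another cell type. Nr1h4, the bile acid receptor FXR, was at 302 CPM in HSCs and 126 CPM in HEP. Cebpa was at 39.4 CPM in KCs and 17.2 CPM in HEP, and Nr5a2 at 31.4 CPM in ECs and 7.64 CPM in HEP. Prox1 and Hhex, which hepatocytes share with endothelium, reached ratios of 1.76 and 1.35 over the EC mean. Hhex was at 117, 30.4, 63.3 and 152 CPM in the HEP libraries and overlapped with the others, whose highest was 82.4 CPM.

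RefSeq promoter windows (250 bases before to 50 after the start, GRCm38.p6) existed for 604 of the 818 hepatocyte-specific genes of at least 10 CPM and for 2115 lacked genes. The 818 include 24 of the pancreas genes, which were not removed. The windows were examined for base composition and for short motifs, neither of which the rule used. Each value is given beside windows of all genes tested and of all genes in the table, which differ from each other. The median CpG ratio, observed over expected, was 0.312 in 756 windows of hepatocyte-specific genes, 0.694 in 2788 windows of lacked genes, 0.716 in 13958 windows of genes tested and 0.384 in all 32851 windows. The median G plus C share was 53.3%, 61.0%, 60.0% and 52.7% in the same order. The GC box GGGCGG, on either strand, was in 34.9%, 61.4%, 58.3% and 35.7%. The hepatocyte-specific windows thus lay below those of genes tested and nearer to all windows in these 3 measures. The HNF4 element CAAAGTCCA, on either strand, was in 3.04%, 0.646%, 0.58% and 0.475%. The FOXA core TGTTTAC, on either strand, was in 4.89%, 2.58%, 2.76% and 3.65%, and the TATA box TATAAA, read on the gene's strand only, in 12.3%, 5.06%, 4.90% and 8.32%. Most windows of the hepatocyte-specific genes thus held neither of the HNF4 and FOXA motifs in these spellings. Such a match is a run of letters and not a site shown to be bound.

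The windows below show how these elements lie in genes of the report, with matches to the 4 motifs above in capitals and every other base in lower case, 5′ to 3′ on the gene's strand. Positions count from the start site as +1. Cyp3a11 (chr5:145879805-145880104, minus strand) and Cyp8b1 (chr9:121916256-121916555, minus strand) hold the HNF4 element, at -109 and -67. Cyp3a11 also holds a FOXA core at -198, and Cyp8b1 a TATA box at -31. Apoa2 (chr1:171224804-171225103, plus strand) holds a FOXA core at -77. Motifs were matched anywhere in a window, and the letters TATAAA lie at -234 in Cyp3a11 and at -212 in Apoa2. Another Apoa2 window (chr1:171221314-171221613), not shown, holds none of the 4 motifs.
Cyp3a11: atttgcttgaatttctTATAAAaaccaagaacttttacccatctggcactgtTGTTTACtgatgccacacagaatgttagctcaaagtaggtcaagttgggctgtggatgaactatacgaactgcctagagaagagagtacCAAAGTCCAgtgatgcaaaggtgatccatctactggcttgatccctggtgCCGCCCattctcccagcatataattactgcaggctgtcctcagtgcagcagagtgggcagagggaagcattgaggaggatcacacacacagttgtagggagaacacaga
Cyp8b1: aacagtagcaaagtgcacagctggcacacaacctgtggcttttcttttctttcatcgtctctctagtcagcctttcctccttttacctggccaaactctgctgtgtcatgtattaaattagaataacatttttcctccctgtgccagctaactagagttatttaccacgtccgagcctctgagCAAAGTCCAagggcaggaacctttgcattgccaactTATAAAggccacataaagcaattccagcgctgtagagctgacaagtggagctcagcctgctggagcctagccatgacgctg
Apoa2: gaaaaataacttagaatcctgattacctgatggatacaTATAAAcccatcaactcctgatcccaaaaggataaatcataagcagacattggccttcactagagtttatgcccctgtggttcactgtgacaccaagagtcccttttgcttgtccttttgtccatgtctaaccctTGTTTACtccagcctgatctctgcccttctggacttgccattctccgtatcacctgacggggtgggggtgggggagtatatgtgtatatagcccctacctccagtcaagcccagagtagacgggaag
The window of Dusp1 (chr17:26508423-26508722, minus strand), a phosphatase gene that hepatocytes lacked relative to the other cells, is shown for contrast with that of Alb (chr5:90460620-90460919, plus strand). Dusp1 has 67.0% G plus C and 3 GC boxes, and Alb has 40.0% and none of the 4 motifs.
Dusp1: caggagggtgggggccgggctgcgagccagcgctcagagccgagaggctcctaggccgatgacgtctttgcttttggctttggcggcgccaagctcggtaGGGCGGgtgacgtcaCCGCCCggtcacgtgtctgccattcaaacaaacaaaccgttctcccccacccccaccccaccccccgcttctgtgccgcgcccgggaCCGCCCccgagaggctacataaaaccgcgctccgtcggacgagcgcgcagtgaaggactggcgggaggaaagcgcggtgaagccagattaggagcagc
Alb: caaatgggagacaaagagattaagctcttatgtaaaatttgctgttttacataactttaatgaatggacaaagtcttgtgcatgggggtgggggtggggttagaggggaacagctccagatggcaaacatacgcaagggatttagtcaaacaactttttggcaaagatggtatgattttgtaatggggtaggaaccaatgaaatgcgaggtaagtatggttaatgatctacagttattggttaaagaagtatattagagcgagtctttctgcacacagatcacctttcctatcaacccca

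Hepatocytes use particular forms of some enzymes and structural proteins. For 19 such pairs, chosen with earlier results of these data known, the log2 ratio of the hepatocyte form to the other form was taken per exon length. In all 19 it was above 0 in all 4 HEP libraries, and in 17 pairs every HEP library lay above every other library. No share over other pairs of genes stands beside these counts, so that nothing is read from them. In 2 pairs the other form was ahead in all 12 other libraries. The ratios of Pfkl to Pfkp and of Fabp1 to Fabp5 were above 0 in all 12 as well. Pklr against Pkm, the liver and general pyruvate kinases, had a mean log2 ratio of 4.25 in HEP and of -5.36, -7.97 and -5.92 in ECs, HSCs and KCs. Cldn1 against Cldn5, claudins of epithelial and endothelial tight junctions, stood at 1.64 against -10.02, -5.14 and -4.41. In the other cell types these ratios also contain the hepatocyte transcripts described above. The pairs Acacb and Acaca, and Thrb and Thra, overlapped between cell types.

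**Figure D4:**
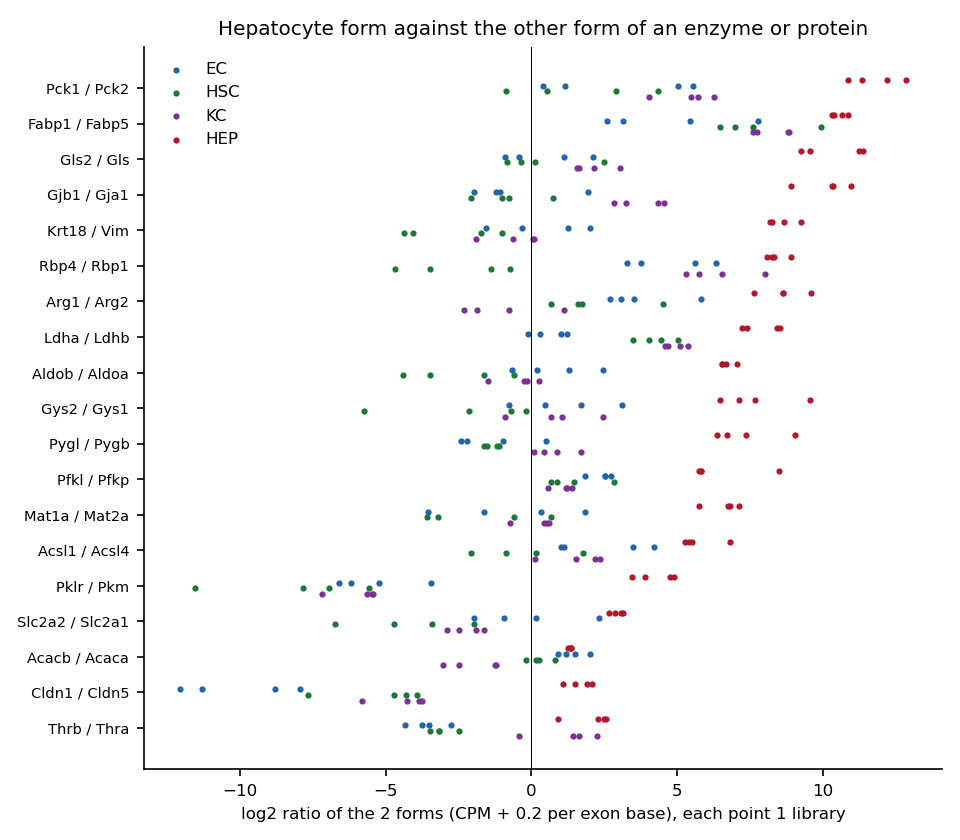
Log2 ratio of the hepatocyte form to the other form (CPM + 0.2, per exon base) for 19 pairs, each point 1 library, coloured by cell type. Points of the 4 HEP libraries are all above 0, and in 17 pairs they lie to the right of every other library.

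At the edge of the rule, among genes of at least 100 CPM, Tmem19 (4.01), Naprt (4.06) and Adh5 (4.08) lay just inside the 4-fold ratio and Cyp4v3 (3.99) and Iah1 (3.92) just outside. Apart from the pancreas genes, which filled all 10 places, the named genes of largest ratio at 10 CPM or more, picked after their values were seen, included Elovl3 (24.4), Cyp2c29 (23.4), Crp (23.3) and Abcg8 (20.1). Mup12 (25.1) and Mup9 (24.8), of the Mup family whose levels are uncertain, had larger ratios. Crp overlapped with the other libraries: HEP WT 29 and KO 25 held 6.25 and 5.87 CPM, and EC WT 34 held 32.2 CPM. Elovl3, a fatty acid elongase, was at 568, 1221, 286 and 94.9 CPM in HEP and Abcg8, a sterol exporter of bile, at 52.5, 31.9, 40.7 and 52.8 CPM. Lgr5, a receptor of hepatocytes next to the central vein, had a ratio of 28.7 at a HEP mean of 7.17 CPM.

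The 4 HEP libraries agreed closely for most of these genes. Over the 499 genes of at least 100 CPM the median ratio of the highest to the lowest HEP library was 1.44. The least variable were Cyp2c29, Hsd17b13, Khk, Adhfe1 and Naprt, at 1.06 to 1.07, and the 5 most variable were all pancreas genes. Of the rest, Crp, C-reactive protein, was at 6.25 and 370 CPM under the WT label and 5.87 and 413 CPM under the KO label, so that each label held a high and a low library. Alas2, the erythroid form of the first haem enzyme, was at 157 and 264 CPM under the WT label and 25.6 and 17.9 CPM under the KO label. Cyp2b9, more abundant in female liver, was at 126, 32.6, 199 and 269 CPM. HEP KO 41 was the lowest of the 4 for Cps1, Hnf4a, Foxa3, Cdh1, Prox1 and Elovl3 and the highest for Cyp2e1 and Nr0b2.

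**Figure D5:**
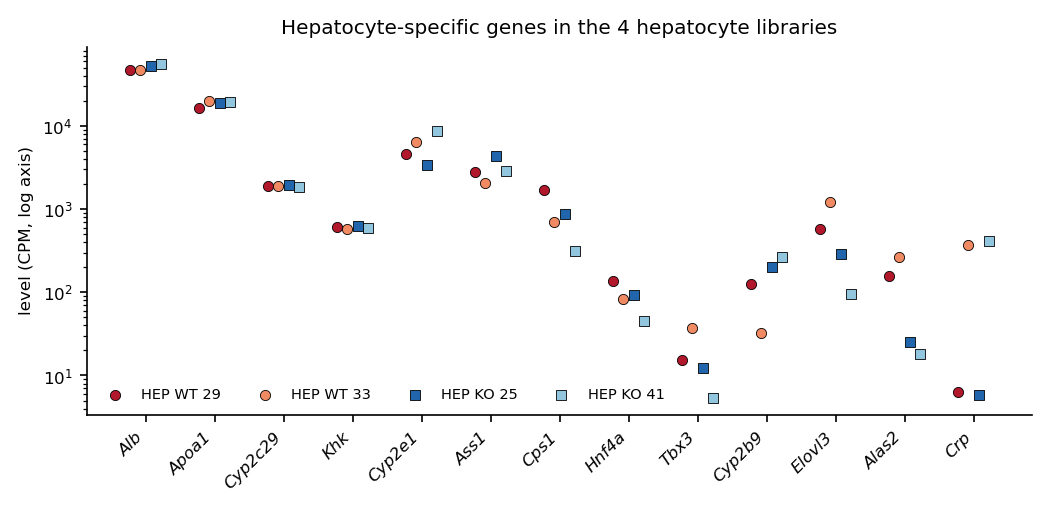
Level (CPM, log axis) of 13 hepatocyte-specific genes in the 4 HEP libraries, circles for the WT label and squares for the KO label. Alb, Apoa1, Cyp2c29 and Khk differ little, whereas Crp is near 6 CPM in a WT-labelled and a KO-labelled library and near 400 CPM in the other two.

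No gene passed the test between the labels in hepatocytes. With 2 libraries per label, 11548 genes were tested and 0 (0%) passed an adjusted p of 0.05 by edgeR's quasi-likelihood test, while 279 higher and 542 lower genes had an unadjusted p under 0.05 (7.11%). DESeq2 called 11 higher and 16 lower in the KO label. Of 1100 hepatocyte-specific genes tested, 65 higher and 57 lower genes had an unadjusted p under 0.05 (11.1%), and their median log2 difference, KO minus WT, was 0.08. Alas2 had the smallest adjusted p, 0.478 by edgeR, at a log2 difference of -3.23 ± 0.36 (SE). Alb differed by 0.26 ± 0.12 (SE, edgeR adjusted p = 0.708). Without HEP KO 25, edgeR called 23 higher and 32 lower genes, on the assumption that the lone KO-labelled library varied like the WT-labelled pair. In simulated data of this design 4-fold changes were recovered in 52.7% and 2-fold changes in 2.08% of genes, so that 2-fold changes would mostly have been missed. Unchanged genes made up 16.5% of the calls in that simulation.

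Whether the hepatocyte contrast itself depended on the label was tested as a difference of differences over all 16 libraries. Of 17214 genes 0 (0%) passed by edgeR, 741 higher and 515 lower genes had an unadjusted p under 0.05 (7.30%), and DESeq2 called 127 and 56. In simulated data of this comparison 17.7% of 4-fold and 0% of 2-fold changes were recovered. The 0 calls thus do not show that the contrast was the same under both labels. The 1096 hepatocyte-specific genes tested leaned one way, with 402 higher and 0 lower at an unadjusted p under 0.05 and a median of 1.43 (log2): the excess of HEP over the other cells was larger under the KO label. The hepatocyte transcripts given above for the other cells entered the same difference. They were higher under the WT label in ECs and HSCs and higher under the KO label in KCs. The 1096 genes share the same libraries and are not independent of each other, and the cause of the lean was not tested. In HEP alone the median of these genes was 0.08, and without the EC libraries that of the difference was 0.83. The rule itself depended moderately on the label: of 1208 genes it chose in WT-labelled libraries alone, 74.0% met it in the KO-labelled ones, and of those with a HEP mean of at least 10 CPM 93.3% did. In the other direction, of 1327 genes chosen in KO-labelled libraries, 67.4% met it in the WT-labelled ones, and 81.2% of those at 10 CPM or more.

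Genes lacked by hepatocytes were mostly protein-coding (2687 of 2934). They took between 1.34% and 1.77% of HEP reads and 25.3% to 31.3% of the reads of the other libraries. In 2390 of them the highest HEP library was below the lowest other library, against 30.7% of all genes tested; here too the rule used those levels. The count depended on the scaling, and with TMM-scaled CPM 1430 genes met the lacked rule and 1981 the hepatocyte-specific rule. The term is relative: the lacked gene of highest level, H2-D1, a class I antigen-presenting molecule, was at 1874, 1490, 1928 and 1920 CPM in HEP and at 6738 CPM or more in the other libraries. Only 271 of the 2934 were at or under 3 counts in each HEP library.

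Of the 10 lacked genes of highest level, the following 5, picked after their values were seen, are known for rapid induction by stress or other stimuli. Dusp1, a phosphatase of MAP kinases, was at 502, 468, 400 and 242 CPM in HEP against 2261 to 8702 CPM in the other libraries. Its lowest other mean, in KCs, was 12.7 times the HEP mean. Ppp1r15a, which reverses the integrated stress response, stood 12.2-fold, the orphan receptor Nr4a1 7.69-fold, the NF-kB inhibitor Nfkbia 7.60-fold and the AP-1 factor Junb 4.47-fold below the lowest other mean. The methods name centrifugation for hepatocytes and a sort for the other cells, and in this design the isolation and the cell type cannot be told apart.

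Genes at or under 3 counts in each HEP library but abundant in another cell type included structural, signalling and metabolic genes. Col6a3, a collagen VI chain, was at 149 CPM in HSCs, and Mfap4, a microfibril protein, at 81.8 CPM in HSCs and at 0 in all HEP libraries. Hk2, the hexokinase of many proliferating and muscle cells, was at 82.3 CPM in KCs, Tlr7, an endosomal RNA sensor, at 69.5 CPM in KCs, and Plxdc1 at 81.0 CPM in ECs. Abcc1, an organic anion exporter, was at 19.7 CPM in ECs, 24.3 CPM in HSCs and 76.6 CPM in KCs and at no more than 0.129 CPM in any HEP library. Maml2, a coactivator of Notch, was at 0.0637, 0.205, 0.129 and 0.135 CPM in HEP and at 27.4 to 76.7 CPM elsewhere.

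By lists, 26 of 27 matrix and TGF-beta genes were lower in HEP (median -4.10) and 20 met the lacked rule. Fn1, fibronectin, which hepatocytes secrete into plasma, was the exception, at 429, 280, 257 and 229 CPM in HEP, 582 CPM in HSCs and 83.6 CPM in ECs; its log2 fold change was 1.41 ± 0.47 (SE, edgeR adjusted p = 0.0156). That call was lost with library totals (0.42, edgeR adjusted p = 0.463), without HEP WT 29 and KO 41 (adjusted p = 0.0638) and in the WT-labelled libraries alone (adjusted p = 0.0857). Of 30 cytoskeletal and mesenchymal genes 27 were lower (median -3.72). Vim, vimentin, was at 5.72 ± 1.47 CPM in HEP (SD, n = 4), and its lowest other mean was 31.0-fold higher. Marcks, a membrane-bound actin regulator, was at 0.733 CPM in HEP and 115-fold higher in the lowest other mean. The calls for Cald1 (0.86) and S100a10 (0.89), higher in HEP with TMM, turned to -0.10 and -0.07 with library totals and are not counted as a direction. Of 22 integrin and adhesion genes, 21 were tested and 20 were lower; Parva was higher at 0.86 with TMM and at -0.09 with totals.

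Of 25 transcription factors of the other lineages 24 passed, all lower (median -3.38). The other one was Gata6, at 1.52 CPM in HEP, 1.35 CPM in ECs and 17.2 CPM in HSCs (0.10 ± 0.54, SE, edgeR adjusted p = 0.89). Zeb2 had a lowest other mean 62.7 times its HEP mean of 2.16 CPM, and Klf4 59.1 times its 1.44 CPM. Zeb1, at 5.79 ± 2.08 CPM in HEP (SD, n = 4), stood against 9.25 CPM in KCs, 35.7 CPM in HSCs and 222 CPM in ECs. Of the 7 genes of the Zeb, Snail and Twist families, 6 were tested and 3 passed, all lower. Of 16 antigen presentation genes 12 passed, all lower, with a median of -1.58. B2m, the light chain of class I molecules, did not pass (0.05 with TMM), although plain CPM put it at 2123 in HEP and 3183 or more in every other mean.

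The lysosome list was divided. Of 20 genes 13 were lower and 5 higher in HEP with TMM factors, 16 lower and 1 higher with library totals, and 5 met the lacked rule. Ctsh, a cathepsin, kept its direction: it was at 418 ± 36.1 CPM in HEP (SD, n = 4), 66.8 CPM in ECs and 53.6 CPM in HSCs, but highest in KCs at 956 CPM (log2 fold change 2.46 ± 0.26, SE, edgeR adjusted p = 1.17e-06). The 15 markers of lymphocytes, neutrophils and erythroid cells had 11 lower and 1 higher gene, the latter being Alas2. Marco, a scavenger receptor of macrophages, was at 54.0 CPM in HEP WT 29 and at 3.48 to 5.73 CPM in the other 3 HEP libraries.

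A number of genes set hepatocytes and 1 other cell type apart from the remaining pair. At 10 CPM or more in HEP, 88 genes were at least 4-fold above HSCs and KCs but not above ECs, 93 were shared with HSCs and 76 with KCs in the same sense. HEP was the higher of the pair in 71, 64 and 63 of them. With ECs, these included Cyb5a, cytochrome b5 (1200 CPM in HEP, 477 CPM in ECs), and Efna1, an ephrin (481 and 367 CPM). With HSCs they included Serping1, the C1 inhibitor (2168 CPM in HEP, 3359 CPM in HSCs), and Hsd11b1, which regenerates active glucocorticoid (1250 and 954 CPM). With KCs they included Gpx1, glutathione peroxidase (3933 CPM in HEP, 4443 CPM in KCs), and Igf1. These examples were chosen after their values were seen.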

How the data were processed

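RNA-seq of 16 libraries was used. Per the submitters' processing notes, reads were trimmed with Trimmomatic 0.32, aligned to GRCm38 with HISAT2 2.1.0 and counted per gene with HTSeq 0.9.1; the annotation release and the strand setting are not given in the sources used here. The authors deposited raw counts per gene for each library. GEO's labels name a stranded TruSeq kit and the series text Smart-seq2, and this was not resolved. The 5 summary lines of the counter were left out: reads without a feature were 1.31% to 1.55% of all reads in HEP and 7.00% to 14.0% in the other libraries, and reads mapped to several places 38.2% to 47.9% and 24.8% to 30.1%.

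Of the gene identifiers, 99.1% were in GENCODE M21, whose exon lengths and names were used. Levels are CPM over gene-assigned reads, set over 12872706 to 15690506 reads per library; a count of 3 served as the floor, which covers counting error only. Contrasts used edgeR 4.0.16 (R 4.3.3; TMM, filterByExpr, glmQLFit, glmQLFTest, Benjamini-Hochberg adjustment), with DESeq2 1.42.0 as an alternative; the label covariate entered the cell type contrasts. On simulated data of the cell type contrast 84.3% of 16-fold, 52.1% of 4-fold and 19.7% of 2-fold changes were recovered, with 5.88% false calls. In that simulation 200 of 15600 genes were changed, up or down at random. The real contrast called 25.6% of genes higher and 42.6% lower, so that these rates hold for the simulated setting only. Promoters are RefSeq windows of GRCm38.p6.

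The members and lists were chosen with earlier results of these data known. Named genes are the 3 markers; the 10 members highest per kilobase and the 10 of largest ratio; listed transcription factors in the set; the pairs of forms; the 10 lacked genes of highest level and the 10 highest elsewhere at or under the floor in HEP; each list's extremes; the 3 genes on either side of the threshold; Zeb2; and the 5 most and least variable members. Other genes of the lists serve as examples chosen after their values were seen, as do the pancreas and clock lists. Some named items are not reported here.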

Additional observations from a re-analysis of the deposited data

Results flagged for a closer look

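In 51 checks of groups of 4 libraries, 9 had a library whose gap to its nearest neighbour, as a share of the group's range, exceeded Dixon's critical value. Chance flags about 1 in 20 groups fixed in advance. Several of these items, such as the pancreas and clock genes, were picked after their values were seen, and many share the same 4 libraries. The 9 are thus not set against that rate. In HEP WT 29, Foxa2 was highest (share 0.839, 33.8 CPM against 13 to 16.3 CPM), as was Marco (0.956, 54.0 CPM against 3.48 to 5.73 CPM). In HEP KO 41, Foxa3 was lowest (0.852, 55.2 CPM against 71.0 to 73.8 CPM), and A1bg, an antiproteinase gene more abundant in female liver, was highest (0.988, 55.9 CPM against 3.48 to 4.13 CPM). The clock-controlled factor Dbp was also highest there (0.970, 8.42 CPM against at most 0.319 CPM). In HEP WT 33, H2-D1 was lowest (0.876, 1490 CPM against 1874 to 1928 CPM).

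Islet hormone transcripts of the pancreas were seen in 1 HEP library, WT 29 (share 1, at 0.382 CPM against 0), and in 1 EC library, KO 6 (share 1, at 40.9 CPM against 0). HSC KO 8 held 0.346 CPM and HSC WT 32 held 0.0640 CPM of them, and the other 12 libraries none. Among the KC libraries, WT 31 had the largest share of reads on genes that hepatocytes lack (0.837, 31.3% against 28.8% to 29.2%).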

How the results depend on the processing

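With library totals in place of TMM factors, added after the data were seen, 2360 genes were higher in HEP than in the mean of the other cell types, 2031 than in ECs, 2219 than in HSCs and 2357 than in KCs, and 9741 were lower than in ECs. Against a null of 4-fold, 1541 were higher and 2507 lower against the mean, 1462 and 2503 against ECs, 1437 and 2522 against HSCs, and 1297 and 2262 against KCs. With at least 10 counts in every library, which leaves fewer genes to test, lower genes numbered 3261, 3056, 3117 and 2850 in the same order, and with WT-labelled libraries alone 3909, 3705, 3658 and 3271. For KO against WT in HEP, DESeq2 gave 11 higher and 16 lower genes and edgeR without a filter 65 and 162; for the difference between labels these were 127 and 56, and 475 and 212. At 8-fold the rule gave 844 hepatocyte-specific and 1399 lacked genes, and at 2-fold 5316 lacked genes; TMM-scaled CPM gave 1430 lacked genes. The cause of these shifts was not tested. Leaving out each library in turn gave 3758 to 4655 higher and 6036 to 6690 lower genes against the mean, 3589 to 4386 and 5670 to 6254 against ECs, 3349 to 4223 and 5858 to 6557 against HSCs, and 3594 to 4231 and 4938 to 5653 against KCs. It gave 1319 to 1448 hepatocyte-specific and 2746 to 3184 lacked genes. For KO against WT in HEP it gave 0 to 23 and 0 to 32, the highest without HEP KO 25, and for the difference between labels 0 to 2 and 0 to 1. With library totals the log2 fold change turned to -0.0946 for Parva, -0.377 for Ctsl, -0.0955 for Cald1 and -0.0704 for S100a10. No paired analysis was possible because no replicate number recurs between groups, although 1 mouse may have given several of the libraries. With 2 libraries per label, a depth of 12872706 to 15690506 reads limits the genes near the floor of 3 counts, and 319 hepatocyte-specific genes had a HEP mean under 1 CPM.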

Other observations

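Genes of the circadian clock, listed after their values were seen, also differed among the HEP libraries. Arntl, a core activator of the clock, was at 51.0, 41.6, 51.6 and 9.17 CPM in HEP WT 29, WT 33, KO 25 and KO 41. Nr1d1, a clock repressor of opposite phase, was at 15.2, 80.3, 103 and 301 CPM. HEP KO 41 was the lowest for Arntl and the highest for Nr1d1 and Dbp. The time of day at which each mouse was killed is not given in the sources used here.

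Genes that differ between male and female liver set HEP WT 33 and KO 41 apart in opposite directions. The median log2 deviation of the male-biased genes from their HEP mean (CPM + 1) was 0.57 in WT 33 and -0.42 in KO 41, against -0.05 in WT 29 and -0.16 in KO 25. That of the female-biased genes was -0.39 in WT 33 and 0.22 in KO 41, against 0.01 and -0.17. Of the 12 male-biased genes listed, 12 were tested between labels in HEP, 0 passed the adjustment and the median log2 difference was -0.63, while the 7 female-biased genes tested had a median of 0.38, with 0 passing. Cyp2b9 (269 CPM) and A1bg (55.9 CPM) were highest in HEP KO 41, and Elovl3 (94.9 CPM) and Mup20 (45.2 CPM) lowest, where the other HEP libraries held 275 to 709 CPM of Mup20. Mup20 belongs to a family of near-identical genes and its level is uncertain.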
